A study of Homo sapiens with 12 samples.

Results

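The 9 genes of the TGF-beta pathway followed here, TGFB1, TGFB2, TGFBR1, TGFBR2, SMAD2, SMAD3, SMAD4, SMAD7 and TGFBI, were measured in HCT116 colon carcinoma cells and PANC1 pancreatic ductal carcinoma cells treated with inhibitors of the co-activators CBP and p300. The members were the rows of the expression table that carry these 9 names, of 34687 rows in all, and each gene had 1 row under its current RefSeq symbol. They were chosen by name, with no threshold on a value but with earlier results of these data known.

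Each cell line received DMSO at 0.05% (the solvent control), ICG-001 at 10 uM or C646 at 10 uM, and RNA was collected after 12 or 96 h. ICG-001 binds CBP and keeps it from β-catenin, and C646 competes with acetyl-CoA at the catalytic site shared by the histone acetyltransferases CBP and p300. The 6 groups of each line gave 12 columns in all, each the authors' mean of 2 arrays (3 arrays for PANC1 ICG-001 12 h), so the replicate spread is not known and no difference below was tested. By the study's methods, 96 h cultures were passaged and fed during treatment, so a 96 h column differs from a 12 h column in more than the length of exposure.

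TGF-beta ligands are secreted in a latent form and, once released, bind the type II receptor TGFBR2, which activates the type I receptor TGFBR1. TGFBR1 phosphorylates SMAD2 and SMAD3, which join SMAD4 and enter the nucleus, where SMAD complexes recruit CBP and p300 to their target genes. The pathway restrains the growth of normal epithelium and is often inactivated in colon and pancreatic cancer, through TGFBR2 in the first and SMAD4 in the second. As background from outside these data, HCT116 is a mismatch repair-deficient line with frameshifted TGFBR2, whereas PANC1 has kept SMAD4. An expression array reads a signal for a transcript, not whether its protein works. A signal at background does not show that the transcript is absent.

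The 12 columns held a signal above the detection limit for 44.5% to 47.7% of genes, and the limit lay between 143.574 and 144.095 signal units in HCT116 and between 134.916 and 138.029 in PANC1. Ratios were read only for genes with a signal above the limit on at least 1 side, and changed means a ratio of 1.5-fold or more in either direction. Background was left in the signals, so a ratio of a dim gene is smaller than the change behind it. Log2 ratios of genes below the limit had an SD of 0.0617 to 0.0734 between columns of a line, which is a floor for the noise. Of the markers, all 4 general epithelial genes were above the limit in both DMSO columns of each line and none of the 3 leukocyte or 3 endothelial genes was in either. Colon markers were mostly not above the limit in HCT116, with 1 of 6 (CDX2) above the limit in both DMSO columns, against 2 of 6 in PANC1 (CDX2 and CDH17), and 4 of 6 pancreatic duct markers were above it in each line. Of 3 fibroblast markers, THY1 alone was above it in PANC1 and none was in HCT116. Fewer cells that express a gene and less of its RNA per cell cannot be told apart in these cultures.

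Both ligands were dim. TGFB1, the form most tissues make, was not above the limit in any of the 12 columns, with signals between 121 and 134 in HCT116 and between 114 and 127 in PANC1. TGFB2 separated the lines. In HCT116 it lay between 121 and 126, above the limit in 0 of 6 columns, whereas in PANC1 it was above the limit in 6 of 6, at 247 with DMSO 12 h, 201 with DMSO 96 h, 228 with ICG-001 12 h, 176 with ICG-001 96 h, 207 with C646 12 h and 217 with C646 96 h. The brightest PANC1 column was the 12 h control and the dimmest the 96 h ICG-001 culture.

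Of the receptors, TGFBR1 stayed at background in all 6 HCT116 columns (128 to 143) and passed the limit in 1 of 6 PANC1 columns, DMSO 12 h, at 142.5, so little can be said about it here. TGFBR2 was well above the limit in every column of both lines. In HCT116 its signal was 426 with DMSO 12 h, 586 with DMSO 96 h, 362 with ICG-001 12 h, 445 with ICG-001 96 h, 364 with C646 12 h and 483 with C646 96 h. PANC1 gave 708 with DMSO 12 h, 759 with DMSO 96 h, 689 with ICG-001 12 h, 573 with ICG-001 96 h, 545 with C646 12 h and 605 with C646 96 h. The transcript of the receptor that is defective in HCT116 was thus detected there, and the lines overlapped only where the brightest HCT116 column, DMSO 96 h, lay above the PANC1 columns with C646 12 h and ICG-001 96 h.

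SMAD2 was barely above the limit in 12 of 12 columns, at 150 to 157 in HCT116 and 141 to 155 in PANC1. SMAD3 was well above the limit and was more variable than SMAD2, SMAD4 and SMAD7 in both lines. In HCT116 its signal was 567 with DMSO 12 h, 772 with DMSO 96 h, 827 with ICG-001 12 h, 611 with ICG-001 96 h, 400 with C646 12 h and 788 with C646 96 h. PANC1 gave 2969 with DMSO 12 h, 2367 with DMSO 96 h, 3040 with ICG-001 12 h, 3354 with ICG-001 96 h, 2184 with C646 12 h and 2410 with C646 96 h. Every PANC1 column was above every HCT116 column, and in each line the lowest column was C646 12 h and the highest an ICG-001 column.

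SMAD4, the partner shared by TGF-beta and BMP signals and frequently lost in pancreatic cancer, was detected in both lines. Its signal in HCT116 was 1239 with DMSO 12 h, 1188 with DMSO 96 h, 1508 with ICG-001 12 h, 1324 with ICG-001 96 h, 1220 with C646 12 h and 1267 with C646 96 h. In PANC1 it stayed between 727 (C646 96 h) and 786 (DMSO 96 h), a 1.08-fold range that is narrower than that of any other member above the limit in all 6 columns of that line. Here the order of the lines was the opposite of that for SMAD3, since all 6 HCT116 columns were above all 6 PANC1 columns.

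SMAD7 is an inhibitory SMAD that TGF-beta itself induces and that turns the receptor off, and TGFBI is a secreted matrix protein named for its induction by TGF-beta. SMAD7 was dim in both lines. Its signal in HCT116 was 176 with DMSO 12 h, 181 with DMSO 96 h, 167 with ICG-001 12 h, 263 with ICG-001 96 h, 198 with C646 12 h and 191 with C646 96 h. The ICG-001 96 h culture stood above the other 5. In PANC1 the signals ran from 186 (C646 96 h) to 226 (C646 12 h), with both DMSO columns, at 195 and 224, inside that range.

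TGFBI showed the widest gap of the members. In PANC1 it was 6856 with DMSO 12 h, 8626 with DMSO 96 h, 6994 with ICG-001 12 h, 9345 with ICG-001 96 h, 5486 with C646 12 h and 6730 with C646 96 h. In HCT116 it lay between 137 and 160, close to background, and the C646 12 h column was not above the limit. The PANC1 columns were spread over 1.70-fold, with C646 12 h lowest and ICG-001 96 h highest.

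**Figure D1:**
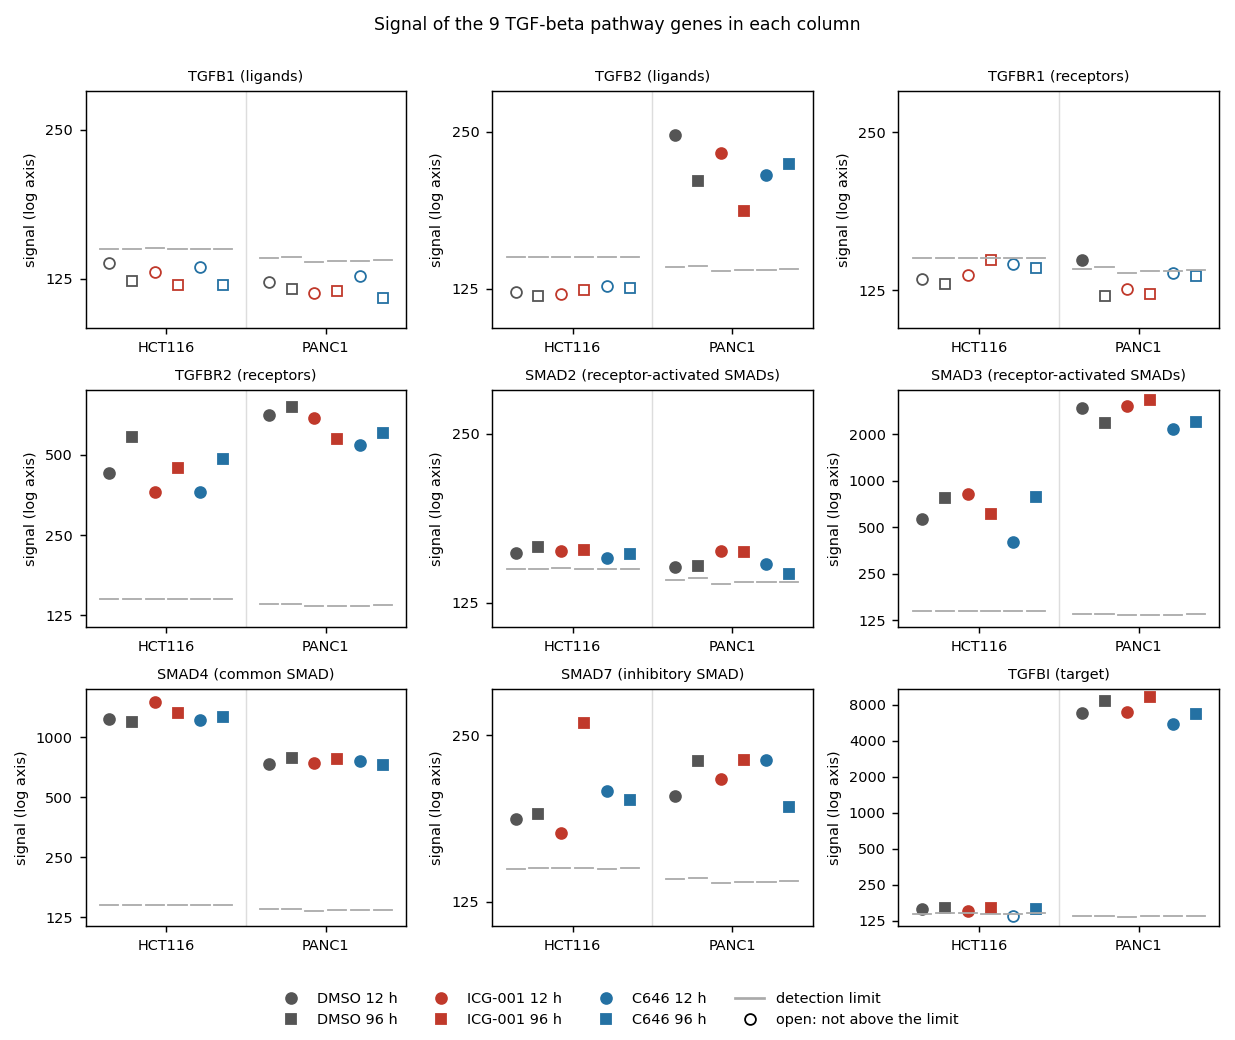
Signal of each of the 9 genes (vertical log axis, array signal units, scaled per panel) in the 6 columns of HCT116 and the 6 of PANC1, with 1 point per column and no error bars because each column is a mean of 2 or 3 arrays. Grey dashes mark the detection limit and open symbols lie at or under it: TGFB1 is open in 12 of 12 columns, TGFBI reaches 9345 in PANC1 and stays under 160 in HCT116, and SMAD7 stands apart in 1 HCT116 column, ICG-001 96 h, at 263.

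The upstream windows of the 2 induced genes are shown because SMAD complexes bind the short motif CAGAC, or GTCTG on the other strand, which is in capitals where it occurs. They are the 250 bases before the gene start as RefSeq annotates it, on build GRCh38.p14, read in the direction of the gene. The first is chr18:48950966-48951215 on the minus strand, and the second is chr5:136028738-136028987 on the plus strand.
SMAD7: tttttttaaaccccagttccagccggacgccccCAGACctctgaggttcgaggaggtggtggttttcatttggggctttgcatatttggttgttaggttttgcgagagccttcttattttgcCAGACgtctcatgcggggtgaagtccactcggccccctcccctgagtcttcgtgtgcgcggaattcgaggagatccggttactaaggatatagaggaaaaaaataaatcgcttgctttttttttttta
TGFBI: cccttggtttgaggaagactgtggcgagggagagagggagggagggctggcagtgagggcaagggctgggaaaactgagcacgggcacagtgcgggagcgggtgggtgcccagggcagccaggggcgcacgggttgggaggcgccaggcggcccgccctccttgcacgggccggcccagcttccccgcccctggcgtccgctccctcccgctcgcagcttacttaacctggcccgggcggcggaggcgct
The SMAD7 window holds 2 matches and the TGFBI window 0. Of all 35116 windows searched, 13345 (38%) hold at least 1 match on either strand, so a match is common. Among the 9 genes, the window at the annotated start of 2 (TGFB2 and SMAD7) holds one. The palindrome GTCTAGAC, a SMAD binding element that contains neither short motif and reads the same on both strands, is in 64 windows (0.182%) and in none of the 24 windows of the 9 genes. The array does not tell which start a transcript used, and a match describes letters in a window, not a bound site.

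The lines in DMSO were compared first, since this is where the genes differed most. Of 15 readings of the 9 genes that could be compared (8 at 12 h and 7 at 96 h), 9 differed at least 1.5-fold, 2 of them higher in HCT116 and 7 lower. At 12 h this was 5 of 8 genes, where 23.5% of all 17475 genes differed (11.8% higher and 11.7% lower in HCT116). At 96 h it was 4 of 7, where 25.7% of 17377 did (12.6% higher and 13.1% lower). The members were chosen with earlier results known, and the difference between their share and that of all genes was not tested. TGFBI was 43.7-fold lower in HCT116 at 12 h and 54.2-fold lower at 96 h, log2 ratios of -5.45 and -5.76, and ranked 6th and 4th by size among all genes compared. SMAD3 was 5.24-fold lower at 12 h and 3.07-fold lower at 96 h. TGFB2 was at least 1.72-fold lower at 12 h and at least 1.40-fold lower at 96 h, bounds set against the HCT116 detection limit because the gene was not above it there. The measured ratios, which the count uses, were 2.00- and 1.66-fold.

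TGFBR2 was lower in HCT116 by 1.66-fold at 12 h and by 1.30-fold at 96 h, so it passed 1.5-fold only at the earlier time point. SMAD4 was the single member at least 1.5-fold higher in HCT116, by 1.68-fold at 12 h and 1.51-fold at 96 h. Neither SMAD2 (log2 ratios of 0.08 and 0.11) nor SMAD7 (-0.14 and -0.31) reached 1.5-fold, though with normexp SMAD7 at 96 h was 1.58-fold lower in HCT116. The 2 lines were probably normalized separately, since sorted log2 signals differed by 0.00371 to 0.00929 on average between columns of a line and by 0.0628 to 0.0661 between lines. Quantile normalization over all 12 columns left the direction of each of these differences as it was and gave 47.5- and 60.5-fold for TGFBI. With background removed by the normexp model, TGFBI was 110- and 136-fold lower in HCT116 and TGFB2 5.76- and 4.36-fold lower. In HCT116 TGFB2 was not above the limit and TGFBI lay next to it. The size of these folds therefore depends on the offset of 16 that was added after the correction.

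**Figure D2:**
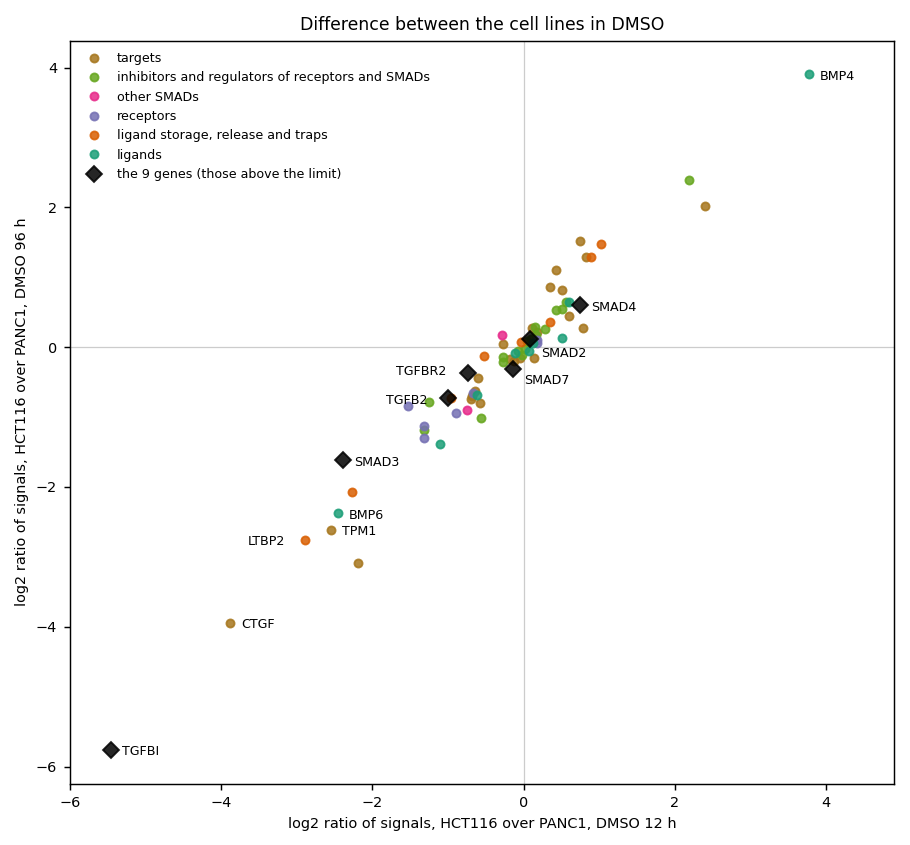
Log2 ratio of signals, HCT116 over PANC1, in the DMSO columns at 12 h (horizontal axis) and 96 h (vertical axis), with 1 point for each gene shown, all compared at both time points. Black diamonds are those of the 9 genes compared at both, so TGFB1 and TGFBR1 are not drawn. Coloured dots are other genes of the pathway by role. TGFBI lies farthest to the lower left at -5.45 and -5.76, SMAD3 at -2.39 and -1.62, and SMAD4 in the upper right at 0.75 and 0.60.

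Set against DMSO of the same time point, no member reached 1.5-fold with either drug in either line. In HCT116 this was 0 of 24 readings (6 genes in each of 4 comparisons), while 9.01% of all genes were changed under ICG-001 at 12 h, 10.3% under ICG-001 at 96 h, 4.14% under C646 at 12 h and 3.14% under C646 at 96 h. In PANC1 it was 0 of 30 readings, with 8 genes compared at 12 h and 7 at 96 h, while 2.51% of all genes were changed under ICG-001 at 12 h, 7.42% under ICG-001 at 96 h, 6.7% under C646 at 12 h and 4.01% under C646 at 96 h. Shares of this size amount to less than 1 of the 6 to 8 genes compared.

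At the lower threshold of 1.2-fold, 7 of the 24 HCT116 readings were changed, from TGFBR2, SMAD3, SMAD4 and SMAD7. All genes gave 32.5% under ICG-001 and 21.8% under C646 at 12 h, and 34.2% and 19.8% at 96 h. In PANC1, 8 of 30 readings passed 1.2-fold, from TGFBR2, SMAD3, SMAD7 and TGFBI, beside 17% of all genes under ICG-001 and 26.7% under C646 at 12 h, and 29.3% and 21.4% at 96 h. The median log2 ratio of the members lay between -0.17 (PANC1 C646 12 h) and 0.02 (PANC1 ICG-001 12 h), and that of all genes between -0.01 and 0.01.

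TGFBR2 gave log2 ratios over DMSO of -0.23 (ICG-001 12 h), -0.40 (ICG-001 96 h), -0.23 (C646 12 h) and -0.28 (C646 96 h) in HCT116. In PANC1 the values were -0.04, -0.41, -0.38 and -0.33 in the same order. Its transcript was thus below DMSO in both lines, by 1.33-fold at most (PANC1 ICG-001 96 h), though the ICG-001 and C646 ratios of a time point share 1 DMSO column. In HCT116 the DMSO columns themselves lay farther apart than this, with the 96 h control 1.37-fold above the 12 h control (log2 ratio of 0.46). In PANC1 they differed by 0.10.

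SMAD3 lay above DMSO in some treated columns and below it in others, depending on drug, time and line. In HCT116 the 12 h log2 ratio was 0.54 under ICG-001 and -0.50 under C646, and the 96 h ratio was -0.34 under ICG-001 and 0.03 under C646. In PANC1 the 12 h ratios were 0.03 and -0.44 and the 96 h ratios 0.50 and 0.03, in the same order of drugs. The largest of these, 1.46-fold, was just under the threshold, and with background removed by normexp the 12 h values of HCT116, 0.62 and -0.66, passed it. The 12 h C646 columns were low in both lines, by 1.42-fold in HCT116 and 1.36-fold in PANC1, and by 96 h C646 was level with DMSO in each. The DMSO columns also differed in opposite directions, with the 96 h control above the 12 h control in HCT116 (0.44) and below it in PANC1 (-0.33).

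SMAD7 was 1.46-fold above DMSO in HCT116 under ICG-001 at 96 h (log2 ratio of 0.54), and the other 3 HCT116 ratios were -0.08 (ICG-001 12 h), 0.17 (C646 12 h) and 0.08 (C646 96 h). With background removed by normexp the ICG-001 96 h value became 1.99-fold, past the threshold. In PANC1 the ratios of SMAD7 were 0.10 and 0.01 under ICG-001 and 0.22 and -0.27 under C646, at 12 and 96 h. No PANC1 value came near that of HCT116 under ICG-001 at 96 h, but a difference between the lines was not tested.

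TGFBI could be read for drug effects only in PANC1, where C646 gave log2 ratios of -0.32 at 12 h and -0.36 at 96 h and ICG-001 gave 0.03 and 0.12. The DMSO columns were 0.33 apart, about as far as C646 was from DMSO. In HCT116 all 4 ratios (-0.05, 0.00, -0.19 and -0.03) came from signals next to the limit. For SMAD4 in HCT116 the ratios were 0.28 (12 h) and 0.16 (96 h) under ICG-001 and -0.02 and 0.09 under C646, while in PANC1 they stayed between -0.11 and 0.04. SMAD2 stayed between -0.05 and 0.10 in both lines. TGFB2 in PANC1 was -0.12 and -0.19 under ICG-001 and -0.26 and 0.11 under C646, and its DMSO columns were 0.30 apart, lower at 96 h.

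**Figure D3:**
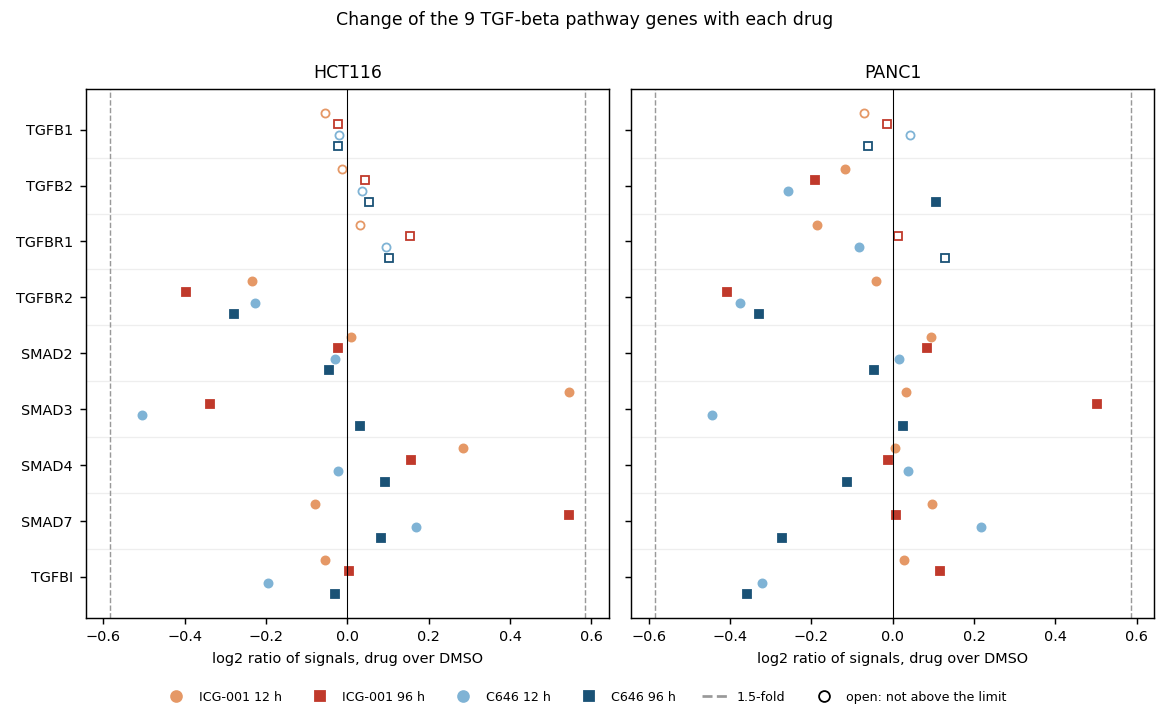
Log2 ratio of signals, drug over the DMSO column of the same time point (horizontal axis), for each of the 9 genes (rows) in HCT116 (left) and PANC1 (right), with 1 symbol per drug and time point; dashed lines mark 1.5-fold and open symbols are pairs with neither column above the detection limit. No symbol lies outside the dashed lines, and SMAD3 spreads widest in both lines, from -0.50 to 0.54 in HCT116 and from -0.44 to 0.50 in PANC1.

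The time in DMSO alone changed no member by 1.5-fold, in 0 of 14 readings, with 3.12% of all genes changed in HCT116 and 1.31% in PANC1. At 1.2-fold 5 of 14 did. TGFBR2 and SMAD3 in HCT116 and TGFBI in PANC1 were higher at 96 h, and SMAD3 and TGFB2 in PANC1 were lower. All genes gave 22.1% in HCT116 and 15.3% in PANC1 at that threshold.

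The drugs were also set against each other at the same dose, line and time, which uses no DMSO column. Of 26 readings, 1 differed by 1.5-fold, SMAD3 in HCT116 at 12 h, which was 2.07-fold higher under ICG-001 than under C646 (827 against 400, log2 ratio of 1.05). It ranked 185th by size among 17027 genes, of which 6.29% passed 1.5-fold. The shares of all genes were 6.54% for HCT116 at 96 h, 2.5% for PANC1 at 12 h and 6.8% for PANC1 at 96 h, where none of the members did. In PANC1 SMAD3 was higher under ICG-001 by 1.39-fold at both 12 and 96 h, whereas in HCT116 at 96 h it was lower (log2 ratio of -0.37). TGFBI in PANC1 was 0.35 at 12 h and 0.47 at 96 h, and TGFBR2 in PANC1 was 0.34 and -0.08. SMAD7 in HCT116 went from -0.25 at 12 h to 0.46 at 96 h. At 1.2-fold 11 of the 26 readings differed, where in HCT116 28.1% of all genes did at 12 h and 27.5% at 96 h, and in PANC1 18.2% and 27.6%.

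The genes whose pattern was most like that of the 3 members with the largest single drug ratio were found by Pearson's r of log2 signals, centred within each line, over 12 columns and 11719 genes above the limit in all of them. For SMAD7, FAM108C1 (r = 0.89) and PELO (0.87) were among them. For SMAD3 they were SCYL2 (0.90), KBTBD2 (0.89) and KIAA1191 (0.89). For TGFBR2 they were STXBP2 (0.96), YIF1B (0.94) and ERO1L (0.94). These r values describe 12 columns, 4 of them DMSO controls, and each is among the highest of 11719 values.

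The rest of the pathway was read from a list of 92 other genes in 6 roles, of which 69 were above the limit in at least 1 HCT116 column and 73 in at least 1 PANC1 column. In HCT116 31 of 248 readings against DMSO passed 1.5-fold, 16 higher and 15 lower. By comparison, 17.7% of the list was changed under ICG-001 at 12 h, 19% under ICG-001 at 96 h, 6.56% under C646 at 12 h and 6.45% under C646 at 96 h, each above the share of all genes given earlier, though the list was chosen with such results known. In PANC1 25 of 272 readings passed, 16 higher and 9 lower. The shares of the list were 4.41% and 15.7% for ICG-001 and 7.46% and 8.96% for C646 at 12 and 96 h. All genes gave 2.51% and 7.42% for ICG-001 and 6.7% and 4.01% for C646, so C646 at 12 h was near the share of all genes. Median log2 ratios of the list stayed between -0.06 and 0.08, beside -0.01 to 0.01 for all genes.

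Among the targets, ID2, a repressor of differentiation that BMP signals induce, was lower under ICG-001 in HCT116 (-1.49 at 12 h and -1.25 at 96 h) and in PANC1 was lowest under C646 at 96 h (-1.49). Under C646 in HCT116 ID2 was -0.45 at 12 h and 0.21 at 96 h. In PANC1 it was -0.33 and -0.57 under ICG-001 and 0.24 under C646 at 12 h. Its DMSO columns, 96 h over 12 h, were 0.35 apart in HCT116 and 0.73 in PANC1. JUNB, an AP-1 subunit, lay below DMSO in HCT116, at -0.60 and -0.97 under ICG-001 and at -0.79 and -0.57 under C646, the last of these just under the threshold. TAGLN, an actin-binding protein of smooth muscle, was higher in HCT116 under ICG-001 at 12 h (1.34) and in PANC1 under ICG-001 at 96 h (1.62), and in HCT116 it also passed the threshold under C646 at 12 h (0.91). With normexp the PANC1 value of TAGLN was 6.67-fold in place of 3.08-fold. Its control signal there, in PANC1 DMSO 96 h, lay near the limit (143.7, limit 138.0). The size of this normexp fold therefore depends on the offset added after the correction. At the other time point of ICG-001 TAGLN was 0.04 in HCT116 and 0.05 in PANC1. In HCT116 the share of targets past 1.5-fold was 33.3% at both time points under ICG-001, and 10% at 12 h and 9.52% at 96 h under C646. All genes gave 9.01%, 10.3%, 4.14% and 3.14% there. In PANC1 the targets gave 4.17% at 12 h and 30.4% at 96 h under ICG-001, and 4.17% and 17.4% under C646, where all genes gave 2.51%, 7.42%, 6.7% and 4.01%. These are shares of 20 to 24 targets.

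FKBP1A, which binds the type I receptor and keeps it inactive, was lower in HCT116 in each of the 4 comparisons, at -0.85 and -0.69 under ICG-001 and -0.93 and -0.81 under C646. In PANC1 it was -0.27 and -0.22 under ICG-001 and -0.82 and -0.65 under C646. TGFBRAP1, a receptor-associated protein that also binds SMAD4, was higher in PANC1 under ICG-001 (0.95 and 0.73) and under C646 at 12 h (1.01), and reached 0.51 under C646 at 96 h. BAMBI, a decoy receptor, was higher in HCT116 under ICG-001 at 96 h (0.93) and under C646 at 12 h (0.60). Its other HCT116 ratios were also above DMSO but under the threshold, at 0.48 (ICG-001 12 h) and 0.52 (C646 96 h). SMAD6, an inhibitory SMAD like SMAD7, was 1.03 in PANC1 under C646 at 12 h. Its other PANC1 ratios were 0.05 and 0.38 under ICG-001 at 12 and 96 h and 0.45 under C646 at 96 h. In HCT116 SMAD6 ran from -0.49 (ICG-001 12 h) to 0.24 (C646 96 h), and normexp took the former past the threshold, to -1.02. Between the PANC1 DMSO columns, 96 h over 12 h, FKBP1A was -0.60, TGFBRAP1 0.52 and SMAD6 0.48. Between those of HCT116, FKBP1A was -0.13, BAMBI 0.38 and SMAD6 0.33. The part of these shifts in the drug ratios was not tested.

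Of the ligands and the genes that store or release them, the BMP ligand BMP4 was -1.12 in HCT116 under ICG-001 at 12 h and -0.59 at 96 h, past 1.5-fold at both. BMP7, of the same family, was 0.96 in HCT116 under C646 at 96 h. FSTL3, which traps activins, was 0.91 under ICG-001 at 96 h. ITGAV, part of the integrins that release latent TGF-beta, had the lowest ratio of the storage and release genes there, -0.61 under ICG-001 at 12 h. In PANC1 THBS1, an activator of latent TGF-beta, was 1.07 under ICG-001 at 96 h. INHBE, a subunit of the activin family, passed 1.5-fold under ICG-001 in HCT116 at 12 h (0.60) and in PANC1 at 96 h (0.63), and its PANC1 12 h ratio was 0.55. With normexp these values of INHBE were 2.51-, 2.39- and 2.41-fold. Its control signals lay near the limit in HCT116 DMSO 12 h (145.3, limit 143.6) and PANC1 DMSO 96 h (150.2, limit 138.0). In PANC1 DMSO 12 h INHBE was not above the limit (132.9, limit 137.3). The size of these normexp folds therefore depends on the offset added after the correction. INHBB, another such subunit, was -0.62 in PANC1 under C646 at 96 h. FURIN, the protease that cleaves the TGF-beta precursor, was -0.73 in PANC1 under C646 at 12 h, and its other ratios in the 2 lines lay between -0.58 and -0.28, under the threshold. With normexp the ratios of FURIN ran from -1.20 to -0.44, most of them past it. Of the receptors on the list, TGFBR3, a co-receptor that presents TGFB2 to TGFBR2, was the 1 that passed 1.5-fold, at -0.64 in PANC1 under ICG-001 at 12 h. In HCT116 TGFBR3 was -0.55 and -0.42 under ICG-001 at 12 and 96 h, which normexp took past the threshold, to -1.05 and -0.69, as it did the PANC1 96 h value (from -0.53 to -0.67). Between the DMSO columns, 96 h over 12 h, TGFBR3 was 0.22 in HCT116 and -0.46 in PANC1.

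**Figure D4:**
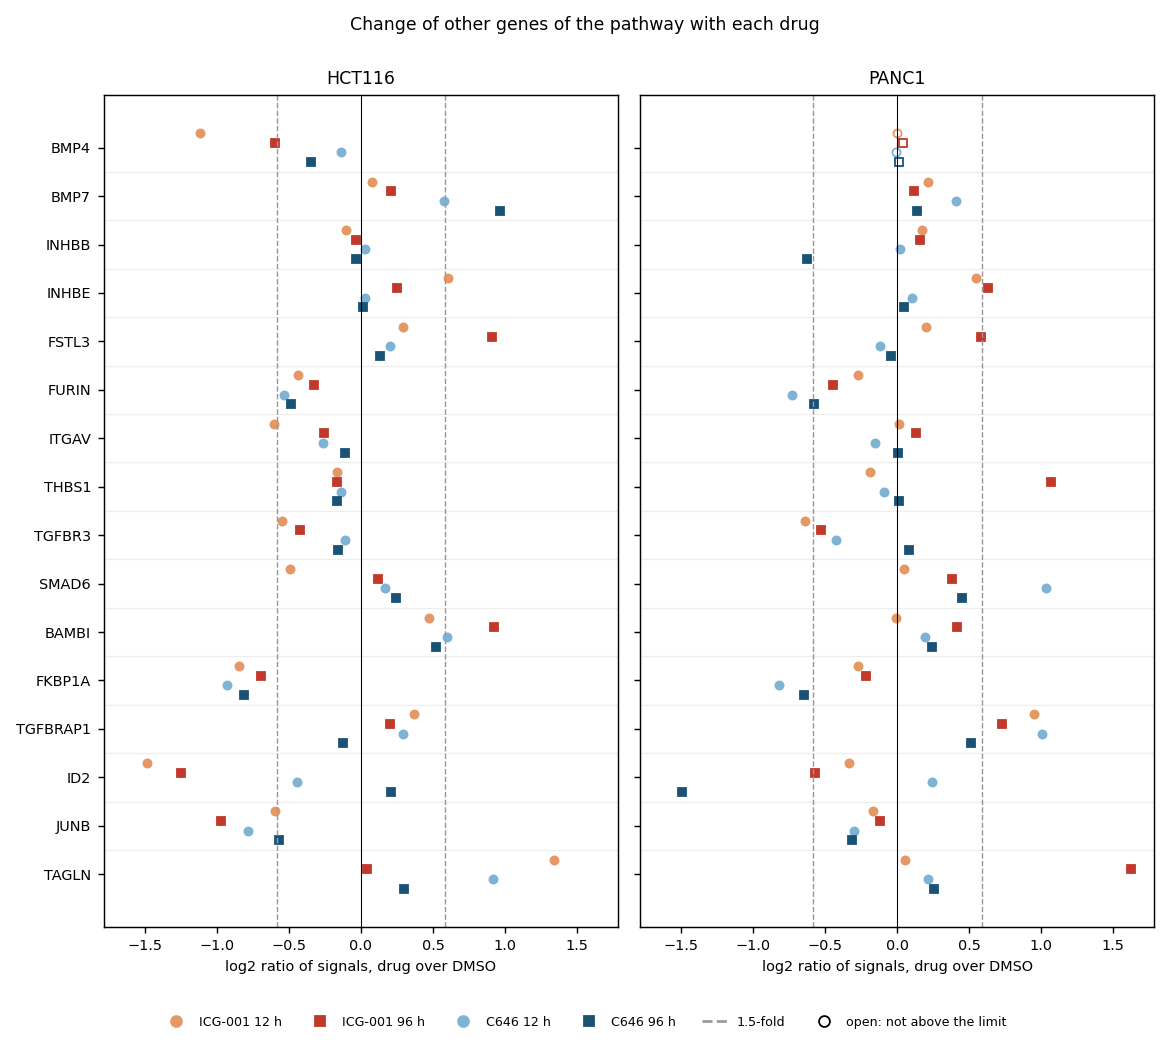
Log2 ratio of signals, drug over the DMSO column of the same time point (horizontal axis), for 16 other pathway genes (rows, ordered by role) in HCT116 (left) and PANC1 (right), with 1 symbol per drug and time point, dashed lines at 1.5-fold and open symbols for pairs with neither column above the limit. FKBP1A lies left of 1.5-fold at all 4 symbols in HCT116, TGFBRAP1 lies right of it at 3 of 4 in PANC1, and TAGLN reaches 1.62 in PANC1 under ICG-001 at 96 h.

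Between the lines in DMSO at 12 h, 32 of 69 genes of the list (46.4%) differed 1.5-fold, 10 higher and 22 lower in HCT116, where 23.5% of all genes did. At 96 h 12 were higher and 23 lower of 72 (48.6%), where 25.7% of all genes differed. The difference between the list and all genes was not tested, and the list was chosen with earlier results known. The target CTGF, a matricellular growth factor picked after its values were seen, was low in HCT116 along with TGFBI, at log2 ratios of -3.88 and -3.94 at 12 and 96 h. BMP4, picked in the same way, was the reverse, at least 12.5-fold higher in HCT116 at 12 h and at least 13.3-fold at 96 h, since it was not above the limit in PANC1.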

How the data were processed

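RNA from 12 groups (the 2 lines, 3 treatments and 2 time points) was hybridised by the authors to Illumina HumanHT-12 v4 expression BeadChips. The table deposited by the authors gives each gene name an intensity (array signal, not logged). They used GenomeStudio, applied quantile normalization, did not subtract background and averaged replicate arrays, 2 per column (3 for PANC1 ICG-001 12 h). Groups came from the sample labels. The build behind the array annotation is not given in the sources used here, so the only coordinates are those of the RefSeq windows.

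Log2 ratios of columns were taken over all 34687 rows. The mode of a column's log2 signals plus 2.33 SD, with the SD from the values under the mode, served as its detection limit. Ratios were read where either column passed its limit and counted as changed at 1.5-fold. With 1 column per group no test was run, no p-value is given, and the number of arrays limits the precision. A bound ("at least") is the brighter signal over the limit of the other column.

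The members, the list of 92 other pathway genes and the markers were chosen with earlier results of these data known. Other pathway genes were named when changed in the same direction in 3 or more of the 4 comparisons of a line with DMSO, or as the largest rise or fall of their role in a line if at least 1.5-fold. Some genes that these rules named are not reported here. The procedure was tested on simulated data, with 2-fold changes planted in genes well above the limit and noise as among dim genes. The simulation does not cover dim genes, changes near 1.5-fold or the spread of replicates. Alternatives were thresholds of 1.2 and 2, no filter, a 5 SD limit, background correction by normexp (offset 16), centred log2 ratios, and quantile normalization over all columns. Python 3.11.15 (numpy 2.4.6, pandas 2.3.3, scipy 1.17.1, matplotlib 3.10.9) and limma 3.58.1 in R 4.3.3 were used.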

Additional observations from a re-analysis of the deposited data

Results flagged for a closer look

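SMAD3 with ICG-001 in HCT116 was above DMSO at 12 h (log2 ratio of 0.54) and below it at 96 h (-0.34), so the time points lay on opposite sides of the control and 0.88 apart. Each ratio comes from 1 pair of columns and the difference was not tested. Of 15640 genes that could be read at both time points, 250 (1.6%) also turned with at least 1.2-fold on each side.

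SMAD3 with ICG-001 at 96 h was below DMSO in HCT116 (-0.34) and above it in PANC1 (0.50), a difference of -0.84 on the log2 scale, HCT116 minus PANC1. This difference was not tested either. Of 15076 genes read in both lines, 357 (2.37%) lay at least 1.2-fold from DMSO in opposite directions. The DMSO 96 h control of HCT116, used in both contrasts, was 1.36-fold above the DMSO 12 h control for SMAD3, and its part in these values was not tested.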

How the results depend on the processing

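No paired analysis was possible because replicate arrays had been averaged into 1 column per group. At a threshold of 1.2-fold, the member readings counted against DMSO went from 0 to 7 in HCT116 and from 0 to 8 in PANC1, those between ICG-001 and C646 from 1 to 11, and those between DMSO time points from 0 to 5. At 2-fold, those between the lines went from 9 to 5. With normexp, which removes background and so widens ratios of dim genes, the counts were 3 in HCT116, 1 in PANC1 (TGFBR1 with ICG-001 at 12 h, log2 ratio of -0.60), 2 between the drugs (adding SMAD7 in HCT116 at 96 h, 0.82) and 1 between DMSO time points (TGFBR1 in PANC1, -0.77). Other pathway genes against DMSO went in HCT116 from 31 to 77 at 1.2-fold, 8 at 2-fold and 57 with normexp, and in PANC1 from 25 to 84, 9 and 56.

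Without a filter, at 5 SD, after centring or with quantile normalization over all columns, each of these counts stayed within 1.5 times its value. The sign turned in 0 of 42 member readings of at least 1.2-fold under the 3 scaling alternatives. For centring this was fixed in advance, since its largest shift was -0.029 in log2 (HCT116 over PANC1, DMSO 12 h). Quantile normalization over all columns also had little room, since sorted log2 signals of columns differed by at most 0.0661 on average. Normexp keeps the order of signals within a column and was followed by quantile normalization within a line. The unturned signs therefore say little about how robust the readings are. Centring brought SMAD4 between the lines at 96 h to a log2 ratio of 0.58, under the threshold. TGFB1 in both lines, and TGFB2 and TGFBR1 in HCT116, gave no reading above background, so no change in them was detectable at this signal. With 2 or 3 arrays averaged per column, a difference near 1.2-fold cannot be separated from differences between arrays.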
